A study of Mus musculus with 12 samples.

Results

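The 39 genes described here are interferon-stimulated antiviral genes of the mouse, chosen by name: the rule took the rows of the deposited table with their symbols and kept a row where 3 or more libraries out of 12 reached a normalized count of 10. All 39 were found and all 39 passed, among 18139 genes kept of 53341 in the table. The list was chosen with earlier results of these data known, so its shares beside those of all genes are descriptions only. Their RNA was measured in cultured fibroblast-like synoviocytes, which build the lining of joints, to learn which responses to the inflammatory cytokine TNF depend on SOXC, the transcription factors encoded by Sox4, Sox11 and Sox12. The 12 poly(A) libraries form 4 groups of 3. SoxC_KO_TNF cells carried the genotype label SoxC knockout, were given an adenovirus with Cre recombinase (Ade5CMV-Cre) and received 10 ng/mL recombinant human TNF for 16 h. SoxC_KO cells had the same genotype and virus without TNF. The control_TNF cells were given an adenovirus with a green fluorescent protein (Ade5CMV-eGFP) and the same TNF, and control cells were given that virus alone. All 12 libraries thus derive from mice described as SoxC and all had received an adenovirus, so the levels below were not compared with those of cells without virus. Nothing in the labels ties a library to an animal or a culture, so the replicate spread behind each p-value may be technical, and the labels do not name the exons that Cre deletes.

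Interferon-stimulated genes are switched on when interferons bind their receptors and Janus kinases activate transcription factors, among them Stat2 with Irf9, that bind DNA elements called ISRE and GAS. Their products detect viral RNA, cut it, block its translation or stop virus entry, and many are expressed at a low level without infection. TNF acts mainly through NF-kB, and Irf1 is a known direct target of both pathways. In inflamed synovium an interferon-type programme is a well known companion of TNF.

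Promoter sequence was compared because the 39 genes are named for a shared response. RefSeq (GRCm38.p6) gave windows of 250 bases before to 50 after each listed start for 30 of the 39. A gene was counted where any of its windows held a match on either strand. The ISRE core, GAAA, any 2 bases and GAAA again, was found for 14 of these 30 genes (46.7%), against 3.99% of 27025 genes with a window. The GAS element TTCNNNGAA was in 8 (26.7%, against 9.55%). The NF-kB motif was in 3 (10%, against 5.14%), namely Bst2, Irf1 and Oasl1, and the SOX motif, AACAATG or AACAAAG, was in 3 (10%, against 10.6%), namely Ddx58, Ifit2 and Irf9. ISRE and GAS matches can overlap, and a match is a description of letters, not of binding. The 5 sequences below are the 250 bases before the start, 5′ to 3′ on the gene's strand, for Irf1, a transcription factor with GAS and NF-kB matches, for 3 effectors with ISRE matches and for the gene with the firmest TNF response. Capitals mark the matches.
Irf1, chr11:53769764-53770013, plus strand: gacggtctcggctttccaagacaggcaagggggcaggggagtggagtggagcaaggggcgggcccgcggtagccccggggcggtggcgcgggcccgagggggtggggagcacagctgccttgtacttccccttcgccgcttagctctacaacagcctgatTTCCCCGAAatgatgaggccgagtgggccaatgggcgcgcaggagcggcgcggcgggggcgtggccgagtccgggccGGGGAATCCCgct
Isg15, chr4:156200819-156201068, minus strand: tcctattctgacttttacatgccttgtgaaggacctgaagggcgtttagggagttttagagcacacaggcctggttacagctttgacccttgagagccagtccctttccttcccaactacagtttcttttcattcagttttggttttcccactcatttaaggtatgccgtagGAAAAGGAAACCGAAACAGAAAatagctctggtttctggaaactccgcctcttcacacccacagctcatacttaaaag
Ifit1, chr19:34640639-34640888, plus strand: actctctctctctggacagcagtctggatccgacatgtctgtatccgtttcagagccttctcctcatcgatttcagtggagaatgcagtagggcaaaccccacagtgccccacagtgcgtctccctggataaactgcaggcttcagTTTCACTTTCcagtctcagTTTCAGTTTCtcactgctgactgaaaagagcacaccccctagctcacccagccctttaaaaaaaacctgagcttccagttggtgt
Oas3, chr5:120777660-120777909, minus strand: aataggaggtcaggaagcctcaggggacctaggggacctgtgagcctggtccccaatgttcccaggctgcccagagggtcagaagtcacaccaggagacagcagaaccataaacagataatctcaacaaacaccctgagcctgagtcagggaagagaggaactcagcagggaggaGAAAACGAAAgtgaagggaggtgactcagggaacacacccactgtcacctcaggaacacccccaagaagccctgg
Ifi47, chr11:49076337-49076586, plus strand: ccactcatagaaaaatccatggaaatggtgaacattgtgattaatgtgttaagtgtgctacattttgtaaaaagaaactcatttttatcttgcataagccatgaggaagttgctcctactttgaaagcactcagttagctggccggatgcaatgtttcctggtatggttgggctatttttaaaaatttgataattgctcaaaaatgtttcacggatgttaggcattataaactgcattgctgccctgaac
Irf1 has a GAS match 90 to 82 bases before the start and an NF-kB match 13 to 4 bases before it. Isg15 has 3 overlapping ISRE matches, Ifit1 has 2 and Oas3 has 1, and Ifi47 has none of the 4 motifs in this window. Of the 11 members with a window that rose with TNF on average when replicate number was in the model, 5 had an ISRE match, as did 9 of the 19 others.

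The deposited normalized totals were 19.6 to 23.1 M per library, a rough 8.14 to 13.7 M read pairs. All 10 synoviocyte markers, such as Pdpn, Thy1 and Col1a1, passed the filter, with sums of 157781 or more in every library. Col1a1, Col1a2, Prg4, Cdh11, Pdgfra, Pdgfrb and Cd55 were lowest in number 3 of each group, while Pdpn, Thy1 and Vim were highest there in some. Col1a1 was at 48918 in SoxC_KO_TNF replicate 3, against 149363 and 161885. In control replicate 3 it was at 77152, against 200391 and 187287, and in SoxC_KO replicate 3 at 133782, against 216838 and 192661. The macrophage markers, 7 of 9 rows kept, summed to 1888 to 3511 in SoxC_KO_TNF, 1701 to 4004 in SoxC_KO, 1554 to 4014 in control_TNF and 1426 to 3461 in control libraries, led by Lyz2. In the libraries numbered 3 of these groups, Lyz2 was at 2172, 2425, 2438 and 2229, against 677 to 1014 in all others. Csf1r, Cd14 and Adgre1 were also highest in number 3 of each group, Ptprc, Itgam and Cd68 in some and Mrc1 in none. The part of the synoviocyte and macrophage markers in the results was not tested. Of 10 known TNF target genes outside the 39, 5 rose in SoxC_KO cells and 4 in control cells without replicate number in the model, and 7 and 10 with it. Among those that rose, Ccl5, a chemokine, averaged 1987 ± 466 normalized counts in SoxC_KO_TNF cells and 322 ± 81.7 in SoxC_KO cells, and 2307 ± 473 in control_TNF cells and 236 ± 44 in control cells (SD, n = 3 each; limma adjusted p = 0.00198 and 0.0012). Sox4 was at 601 to 1086 in SoxC_KO_TNF and 548 to 1433 in SoxC_KO libraries, against 1625 to 3646 in control_TNF and 1857 to 4238 in control libraries. It did not pass limma's adjustment in either knockout comparison (adjusted p = 0.997 with TNF and 0.999 without), and passed on average with replicate number in the model (log2 change -1.46, limma adjusted p = 0.0146). Sox11 and Sox12 did not pass in any of these, and Sox12 without TNF was at 194 to 259 in SoxC_KO libraries, against 162 to 352 in control libraries, so the groups overlapped. On the first principal component (51.6% of the variance) the 4 libraries numbered 3, 1 of each group, had the highest scores, 0.14 to 0.61, with control_TNF replicate 1 next at 0.03. Liver transcripts were present in SoxC_KO_TNF replicate 1 and control_TNF replicate 2, where albumin (Alb) had 2690 and 382 normalized counts. No other library exceeded 7.54, and results without these libraries are given below. Of the skeletal muscle genes, Myh4 was at 277 in SoxC_KO_TNF replicate 1 and 188 in SoxC_KO replicate 1, against 13.3 or less elsewhere. Ckm was at 95.3 and 59.1 there, against 4.45 or less, while Acta1 was highest in SoxC_KO replicate 3 (1146). The part of the muscle transcripts in the results was not tested.

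The 39 genes were well expressed before any TNF. Per kilobase of each gene's longest transcript, the median member stood at percentile 87.5 of all genes kept in SoxC_KO_TNF cells, 81.6 in SoxC_KO cells, 84 in control_TNF cells and 81.7 in control cells. Ifitm3, which blocks virus entry from endosomes, was the highest, at 22998, 21258, 25426 and 17604 normalized counts per kilobase in the same order of groups. Bst2 (tetherin), which holds budding virus at the cell surface, followed with 11103, 12062, 14607 and 9828. Mx1, a GTPase that traps viral nucleoproteins, was the lowest with 20.3, 14.2, 18.8 and 9.8, and Oas3, Ifitm1 and Cmpk2 also lay in the lower 50% of genes in all 4 groups. Levels of Dhx58, which shares 2637 bases with Dhx58os on the other strand (means 792 and 236), and of Rtp4, which shares 300 with Masp1 (means 1826 and 2096), are uncertain because the use of strand in counting is not stated, and Oas1a has close copies that could split its reads. In bulk RNA, fewer cells that express a gene and less RNA per cell cannot be told apart.

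TNF was followed by higher levels of most of the 39 genes in both cell groups, by modest amounts. The median log2 change was 0.52 in SoxC_KO cells and 0.49 in control cells, with 33 and 36 of the 39 above 0, while the median of all 18139 genes was -0.01 and -0.02. Leaving out 1 library moved the control-cell median between 0.30 (without control replicate 1) and 0.61 (without control replicate 3). The SoxC_KO median moved between 0.40 (without SoxC_KO replicate 3) and 0.62 (without SoxC_KO replicate 1). In SoxC_KO cells 17 of the 39 (43.6%) had all 3 TNF libraries above all 3 without TNF, against 6.43% of all genes, and in control cells 8 did (20.5%, against 4.6%). Cmpk2, Herc6, Ifi47, Ifitm1, Oas2 and Oas3 did so in both (6 of 39, 15.4%, against 1.79%), and none had all 3 TNF libraries below (6.4% of all genes did in SoxC_KO cells and 4.11% in control cells). Compared number by number, 24 of the 39 were higher with TNF at each of the 3 numbers in SoxC_KO cells (15.8% of all genes) and 24 in control cells (19.9%), 14 of them in both (4.91%), and none was lower at each number (17.1% and 22.1%). With quantile normalization the sign turned for Irf9 in control cells and for Isg15, Bst2 and Irf9 in SoxC_KO cells. Single genes seldom passed the test. Without replicate number in the model, 0 of 39 rose in SoxC_KO cells (0.243% of all genes rose) and 0 in control cells (0.287%), although 14 and 8 had an unadjusted p under 0.05 in the limma fit, as did 7.38% and 4.21% of all genes. Same-numbered libraries deviated together in both TNF comparisons, and with replicate number as a block 7 of 39 rose in SoxC_KO cells (1.78% of all genes) and 2 in control cells (1.18%). Averaged over both cell groups, 1 of 39 rose without the block (Ifi47; 0.877% of all genes) and 14 with it (3.01%). None of the 39 fell in these fits, where 0.0496%, 0.0331% and 0.292% of all genes fell without the block in SoxC_KO cells, control cells and on average, and 1%, 0.529% and 2.18% with it.

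**Figure D1:**
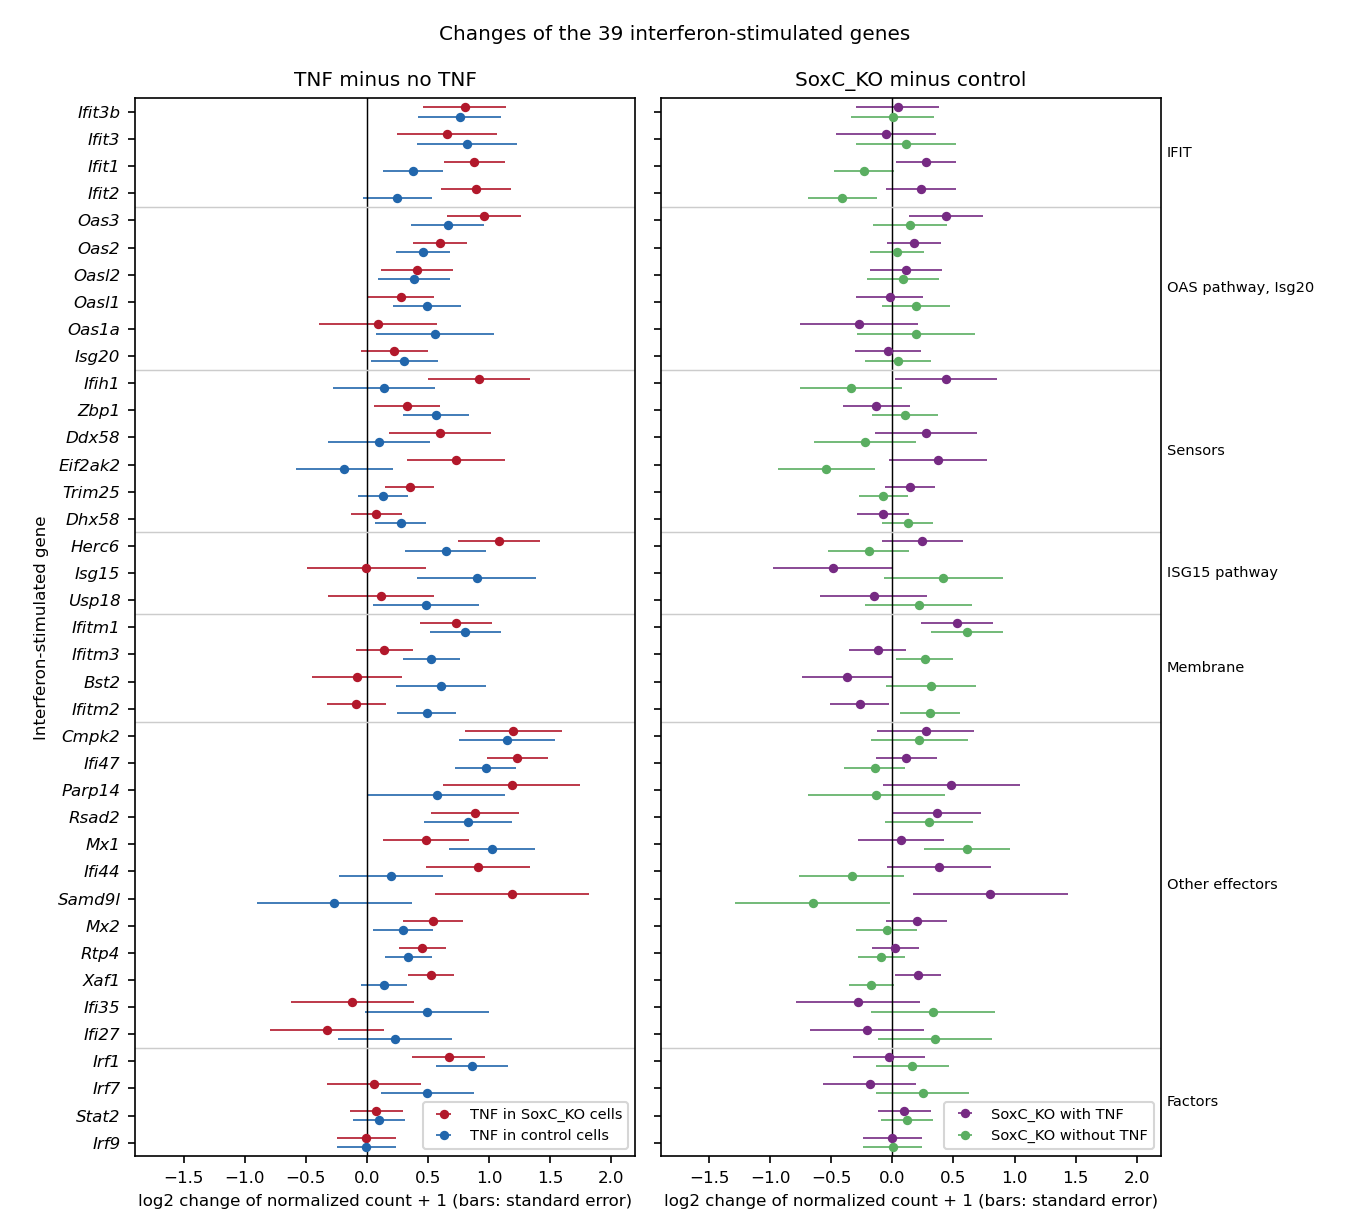
Log2 changes of the 39 genes with standard errors from the limma model of 12 libraries, grouped by role; left, TNF minus no TNF in SoxC_KO cells (red) and control cells (blue), right, SoxC_KO minus control with TNF (purple) and without (green). Most TNF points lie right of 0 (33 of 39 in SoxC_KO cells and 36 of 39 in control cells). The knockout points lie on both sides of 0, with 24 of 39 above it with TNF and 25 of 39 without.

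Ifi47, an interferon-induced GTPase of the cell's defence against intracellular pathogens (chromosome 11, 49076587 to 49096974, plus strand, mm10), had the firmest change. Its normalized count was 517, 678 and 821 in SoxC_KO_TNF libraries, against 289, 262 and 293 in SoxC_KO libraries. In control_TNF libraries it was 584, 571 and 685, against 257, 263 and 445 in control libraries. The groups did not overlap in either comparison. The average log2 change was 1.10 (SE 0.18), with a limma adjusted p of 0.0104 without the block and 1.91e-04 with it, and it passed in each of the 12 fits that left out 1 library, in both models. The change was 1.23 in SoxC_KO cells (adjusted p = 0.0938, and 0.00283 with the block) and 0.97 in control cells (adjusted p = 0.296, and 0.0132 with the block). Ifi47 shares its strand and 20388 bases with Olfr56, whose mean was 35.8 against 472 for Ifi47, so a part of its reads may not be separable.

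Irf1 (chromosome 11, 53770014 to 53778374), the transcription factor whose promoter is shown above, was at 1488, 1609 and 2012 in SoxC_KO_TNF libraries, against 993, 736 and 1638 in SoxC_KO libraries. In control_TNF libraries it was at 1680, 1476 and 2061, against 878, 776 and 1250 in control libraries. The control groups did not overlap, while SoxC_KO replicate 3 lay within the range of the SoxC_KO_TNF libraries. The log2 change was 0.67 in SoxC_KO cells (SE 0.30, limma adjusted p = 0.668, and 0.0442 with the block) and 0.86 in control cells (SE 0.30, adjusted p = 0.718, and 0.0143 with the block). On average it was 0.76 (adjusted p = 0.154, and 0.00139 with the block). The other 3 factors of the group did not pass. Stat2, which acts with Irf9, ranged from 2114 to 3343 over the 12 libraries, Irf7, the amplifier of interferon gene transcription, from 2311 to 6200, and Irf9 from 1167 to 1900.

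Cmpk2 and Rsad2 are divergent neighbours on chromosome 12 (26469204 to 26479837 and 26442746 to 26456452) whose products, a nucleotide kinase and the radical enzyme viperin, act in turn to make an antiviral nucleotide. Cmpk2 was at 160, 257 and 364 in SoxC_KO_TNF libraries, against 90.5, 85.8 and 157 in SoxC_KO libraries, and at 229, 185 and 202 in control_TNF libraries, against 75.9, 63.1 and 160 in control libraries. It had no overlap in either comparison and the largest average log2 change of the 39, 1.17 (SE 0.28, limma adjusted p = 0.084, and 0.00276 with the block). Rsad2 was at 260, 368 and 500 in SoxC_KO_TNF libraries, against 200, 172 and 221 in SoxC_KO libraries, and at 289, 278 and 281 in control_TNF libraries, against 121, 110 and 302 in control libraries. Control replicate 3 was above all 3 control_TNF libraries for Rsad2, and the average change was 0.85 (SE 0.25, limma adjusted p = 0.207, and 0.0189 with the block).

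Parp14, an ADP-ribosyltransferase that modifies proteins of the interferon response, was at 3974, 4007 and 1867 in SoxC_KO_TNF libraries, against 1796, 2109 and 665 in SoxC_KO libraries. In control_TNF libraries it was at 2292, 4320 and 1098, against 1850, 1901 and 943 in control libraries. It was higher with TNF at each replicate number, and the libraries numbered 3 were the lowest of every group, so the groups overlapped. The log2 change in SoxC_KO cells was 1.19 (limma SE 0.56 and adjusted p = 0.699 without the block, SE 0.19 and adjusted p = 0.00598 with it), and it passed with the block in each of the 12 fits that left out 1 library. In control cells it was 0.57 and did not pass (adjusted p = 0.998 without the block).

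**Figure D2:**
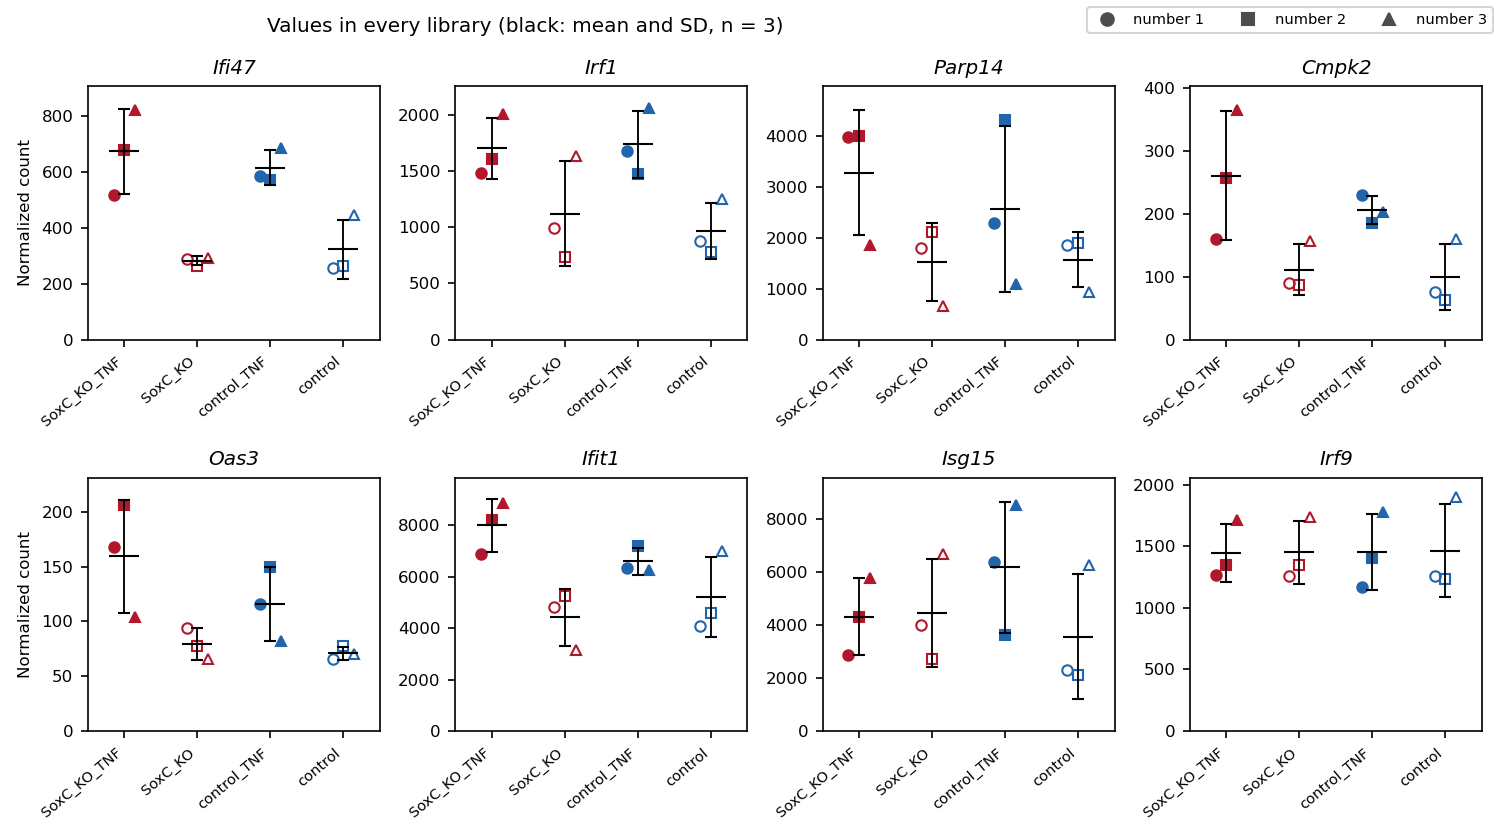
Normalized counts of 8 genes in every library (circle, replicate number 1; square, 2; triangle, 3), with the mean and SD of each group of 3 in black; red marks SoxC_KO cells, blue control cells, and filled symbols TNF. Ifi47 and Cmpk2 separate with and without TNF in both cell groups, Parp14 and Oas3 are lowest in number 3 of most groups while Isg15 and Irf9 are highest there, and Irf9 lies between 1167 and 1900 throughout.

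OAS enzymes make the oligoadenylate signal that switches on RNase L. In the group of OAS and OAS-like genes, with the nuclease Isg20 counted in, 3 of 6 members rose on average with the block (3.01% of all genes). Oas3 was at 168, 206 and 104 in SoxC_KO_TNF libraries, against 94.2, 77.9 and 65.7 in SoxC_KO libraries, and at 116, 150 and 81.7 in control_TNF libraries, against 65.3, 77.2 and 70.6 in control libraries. Neither comparison had overlap, and the average log2 change was 0.81 (SE 0.21, limma adjusted p = 0.13, and 0.0102 with the block). Oas2 was at 668, 703 and 519 in SoxC_KO_TNF libraries, against 495, 405 and 350 in SoxC_KO libraries, and at 520, 684 and 474 in control_TNF libraries, against 454, 406 and 354 in control libraries. It too had no overlap, with an average change of 0.53 (limma adjusted p = 0.202, and 0.0143 with the block). Oasl2, an OAS-like protein with a ubiquitin-like tail, was at 4598, 5063 and 2585 in SoxC_KO_TNF libraries, against 3547, 3176 and 2291 in SoxC_KO libraries, and at 3617, 4650 and 2850 in control_TNF libraries, against 3049, 3158 and 2247 in control libraries. It was higher at each number with overlapping groups, and its average change of 0.39 was the smallest that passed (limma adjusted p = 0.754, and 0.0421 with the block).

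The IFIT proteins bind viral RNA and block its translation, and 3 of the 4 genes rose on average with the block (3.01% of all genes). Ifit1 was at 6888, 8206 and 8885 in SoxC_KO_TNF libraries, against 4841, 5242 and 3169 in SoxC_KO libraries, and at 6333, 7202 and 6244 in control_TNF libraries, against 4082, 4571 and 6992 in control libraries. Its groups were apart in SoxC_KO cells and overlapped in control cells, and the average change was 0.63 (SE 0.17, limma adjusted p = 0.16, and 0.0364 with the block). Ifit3 was at 4164, 6147 and 7794 in SoxC_KO_TNF libraries, against 3929, 2887 and 4487 in SoxC_KO libraries, and at 5236, 5251 and 8086 in control_TNF libraries, against 2277, 2486 and 7141 in control libraries. Ifit3b was at 1089, 1699 and 1892 in SoxC_KO_TNF libraries, against 1009, 788 and 832 in SoxC_KO libraries, and at 1350, 1482 and 1603 in control_TNF libraries, against 650, 638 and 1591 in control libraries. Ifit3 and Ifit3b are close copies, so counting could split their reads, and their average changes were 0.74 and 0.78 (limma adjusted p = 0.466 and 0.231, and 0.0239 and 0.0291 with the block). Ifit2 ranged from 298 to 1122 over the 12 libraries and did not pass.

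Of the 6 genes grouped as nucleic acid sensors, with the ubiquitin ligase gene Trim25 counted in, 1 rose on average with the block (3.01% of all genes). Zbp1, which binds left-handed nucleic acid and can start cell death, was at 1999, 2265 and 2510 in SoxC_KO_TNF libraries, against 1626, 1523 and 2312 in SoxC_KO libraries, and at 2195, 2168 and 3142 in control_TNF libraries, against 1325, 1421 and 2455 in control libraries. The groups overlapped in both comparisons, and the average change was 0.45 (limma adjusted p = 0.559, and 0.0236 with the block). Ifih1, a sensor of long RNA duplexes, rose with the block in SoxC_KO cells alone among the sensors, with 1833, 2069 and 1392 in SoxC_KO_TNF libraries, against 1274, 1352 and 451 in SoxC_KO libraries. In control_TNF libraries it was at 1266, 1964 and 856, against 1293, 1305 and 938 in control libraries, with 1 number of 3 higher. Its log2 change in SoxC_KO cells was 0.92 (limma adjusted p = 0.676, and 0.0442 with the block). Without SoxC_KO replicate 3 it was 0.61, and the call was lost. It held in 4 of the 12 fits that left out 1 library. Ddx58, Dhx58, Eif2ak2 and Trim25 did not pass in either cell group.

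In the pathway of Isg15, a ubiquitin-like tag for proteins, only the ligase gene Herc6 rose with the block (on average, 3.01% of all genes rose). It was at 844, 952 and 890 in SoxC_KO_TNF libraries, against 564, 598 and 222 in SoxC_KO libraries, and at 768, 925 and 605 in control_TNF libraries, against 520, 479 and 450 in control libraries. Neither comparison had overlap, and the average change was 0.86 (SE 0.23, limma adjusted p = 0.148, and 0.0112 with the block). The change in SoxC_KO cells, 1.08, was 0.69 without SoxC_KO replicate 3, and the call was lost. That call held in 4 of the 12 fits that left out 1 library. Herc6 overlaps Gm45193 on the same strand over 45031 bases, with means of 651 and 186. Isg15 was at 2864, 4320 and 5783 in SoxC_KO_TNF libraries, against 4002, 2708 and 6697 in SoxC_KO libraries, and at 6402, 3623 and 8552 in control_TNF libraries, against 2288, 2120 and 6289 in control libraries. Its log2 change was 0.90 in control cells and did not pass (limma adjusted p = 0.998). In SoxC_KO cells it was -0.01, a sign that turned with quantile normalization (limma adjusted p = 0.999).

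Of the 4 membrane proteins that restrict virus entry or release, Ifitm1 rose on average with the block (3.01% of all genes did). It was at 50.3, 56.4 and 38.2 in SoxC_KO_TNF libraries, against 34.5, 23.5 and 28.2 in SoxC_KO libraries, and at 42.8, 32.5 and 25 in control_TNF libraries, against 20.8, 16.6 and 17.6 in control libraries. The groups did not overlap in either comparison, the average change was 0.77 (SE 0.21, limma adjusted p = 0.144, and 0.0437 with the block), and at such low counts it passed in 1 of the 12 fits that left out a library. Its near relatives Ifitm2 and Ifitm3 could share reads with it and did not pass. Of the 12 other effectors, Ifi47, Cmpk2, Parp14 and Rsad2 rose on average with the block (3.01% of all genes did). The other 8 did not pass, among them Mx1, Mx2, Xaf1 and Samd9l.

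The calls with the block rested on single libraries to differing degrees. Of the 14 members that rose on average, Ifi47, Irf1, Cmpk2, Parp14, Oas3 and Herc6 passed in all 12 fits that left out 1 library. The other 8 passed in 1 (Ifitm1) to 10 (Oas2, lost without control_TNF replicate 3 or control replicate 2) of the 12. In SoxC_KO cells Ifi47 and Parp14 passed in all 12, Cmpk2 in 7, Herc6 and Ifih1 in 4 each, Irf1 in 2 and Oas3 in 1. In control cells Ifi47 passed in 7 and Irf1 in 6. Without the liver-containing libraries, SoxC_KO_TNF replicate 1 and control_TNF replicate 2, the blocked model called Cmpk2, Herc6, Ifi47, Irf1 and Parp14 on average, 5 in all (12.8%, against 1.71% of all genes). Without the 4 libraries numbered 3 and with no block, 13 members rose on average (2.29% of all genes) and the median change of the 39 was 0.42. In that fit the median TNF change was 0.39 in SoxC_KO cells and 0.64 in control cells. The interaction median was -0.13, with 12 of 39 above 0. The knockout median was 0.22 without TNF (34 of 39 above 0) and 0.03 with TNF (20 of 39).

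No member passed the test between SoxC knockout and control cells. With TNF, 0 of 39 rose or fell in SoxC_KO_TNF against control_TNF cells by limma, with or without the block (0% of all genes in either direction), and 0 without the block and 2 with it had an unadjusted p under 0.05, where 1.28% and 6.4% of all genes did. Without TNF, 0 of 39 rose or fell in SoxC_KO against control cells (0% of all genes), and none had an unadjusted p under 0.05 in either model, where 0.97% of all genes did without the block and 4.55% with it. The medians of the 39 log2 changes were 0.10 with TNF and 0.10 without, and all genes had medians of -0.00 and -0.01. The sign of these medians rested on single libraries: with TNF it ran from -0.03 without SoxC_KO_TNF replicate 3 (0.04 without SoxC_KO_TNF replicate 2 and 0.05 without control_TNF replicate 1) to 0.15 without control_TNF replicate 2. Without TNF it ran from -0.03 without control replicate 2 (-0.01 without control replicate 1 and 0.03 without SoxC_KO replicate 3) to 0.28 without control replicate 3. The average over both TNF settings gave 0 calls as well, where the block called 1 gene, Sox4, in the downward direction (0.00551%). Its median over the 39 was 0.03, with 31 of 39 above 0, where 44.1% of all genes were. Leaving out 1 library without the block moved the 31 between 19 (without control replicate 2) and 35 (without SoxC_KO_TNF replicate 1).

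Ifitm1 had the largest average knockout value, 0.57 (SE 0.21, limma adjusted p = 1), and was the only member whose 3 SoxC_KO libraries lay above all 3 control libraries, which is 2.56% of the 39 against 2.39% of all genes. None had all 3 below (1.98% of all genes). With TNF the groups overlapped for all 39, where 2.82% of all genes lay above and 2.34% below without overlap. By number, 8 of the 39 were higher at each number in SoxC_KO_TNF than in control_TNF libraries (20.5%, against 10.4% of all genes), among them Herc6, Ifih1, Oas2 and Oas3, and none lower (10.2%). In this comparison same-numbered libraries fell short as pairs (correlation 0.0537 at number 1, cutoff 0.1). The counts by number and the block are therefore descriptions only here. Without TNF, 11 were higher at each number in SoxC_KO than in control libraries (28.2%, against 18.7%), among them Bst2, Isg15 and Ifitm1 to Ifitm3, and Ddx58, Eif2ak2 and Trim25 were lower at each (7.69%, against 20.3%). Parp14 with TNF was 0.48 higher in SoxC_KO_TNF than in control_TNF cells on the log2 scale (limma SE 0.56, adjusted p = 0.997, and SE 0.19, adjusted p = 0.618 with the block). Without TNF it was at -0.13 (limma adjusted p = 0.999).

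The TNF effect of no member differed between SoxC_KO and control cells by the test of that difference. The interaction was called for 0 of 39 (0% of all genes), with adjusted p of 0.884 or more without the block and 0.284 or more with it; 0 and 10 members had an unadjusted p under 0.05, where 1.51% and 17.2% of all genes did. Samd9l, a restriction factor of viral translation, had the largest value, 1.46 (SE 0.90), from a TNF change of 1.19 in SoxC_KO cells and -0.27 in control cells. It was at 3968, 4034 and 3397 in SoxC_KO_TNF libraries, against 2562, 3289 and 545 in SoxC_KO libraries, and at 2378, 4253 and 1012 in control_TNF libraries, against 3102, 3041 and 1896 in control libraries. Isg15 had the lowest value, -0.91 (SE 0.69). Samd9l was lowest and Isg15 highest in the library numbered 3 of each group.

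**Figure D3:**
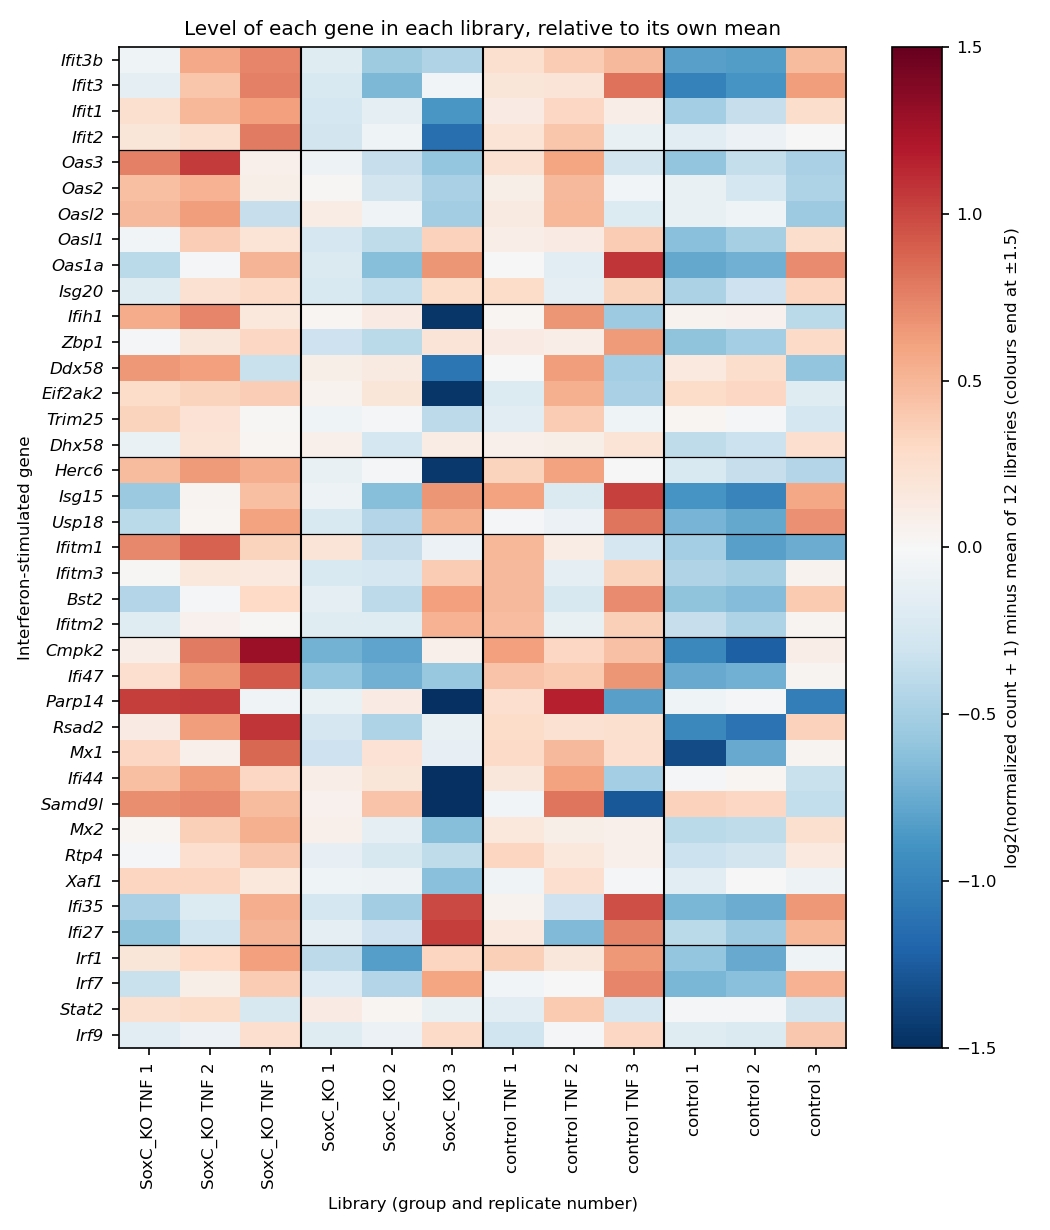
Heat map of log2(normalized count + 1) of the 39 genes in the 12 libraries, each gene relative to its own mean, with colours ending at 1.5; columns run from SoxC_KO_TNF, SoxC_KO and control_TNF to control, rows by role. SoxC_KO replicate 3 is deep blue for long genes such as Parp14 and Samd9l and red for short ones such as Ifi27 and Ifi35, and the TNF columns are redder for most rows.

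The libraries numbered 3 split the 39 genes by transcript length. Against the mean of numbers 1 and 2, 16 members were higher in number 3 in all 4 groups, 12 were lower in all 4 and 11 were mixed. The same count over all genes was not made, so it is not known whether these numbers are particular to the 39. Averaged over the groups, Ifi35 was 1.19 higher, Oas1a 1.11, Ifi27 1.05 and Isg15 1.02 on the log2 scale, while Parp14 was at -1.29, Samd9l at -1.25, Ddx58 at -0.94 and Ifih1 at -0.84. Over the 39 members the difference had a Pearson r of -0.67 with the log2 length of the longest transcript (Spearman rho -0.69), and over 18112 genes with a length it was -0.47 (rho -0.51), all across genes, which share the same 12 libraries. In the 13 shortest members, 655 to 1885 bases, the median difference was 0.76 with 12 above 0. In the 13 longest, 3385 to 7417 bases, it was -0.48 with 11 below 0. The same length groups had median TNF changes of 0.12 and 0.88 in SoxC_KO cells and 0.53 and 0.25 in control cells. The macrophage markers Lyz2, Csf1r, Cd14 and Adgre1 were also highest in number 3 of each group, and most synoviocyte markers, such as Col1a1 and Prg4, were lowest. Whether the length or the marker difference shapes the TNF or interaction values was not tested.

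**Figure D4:**
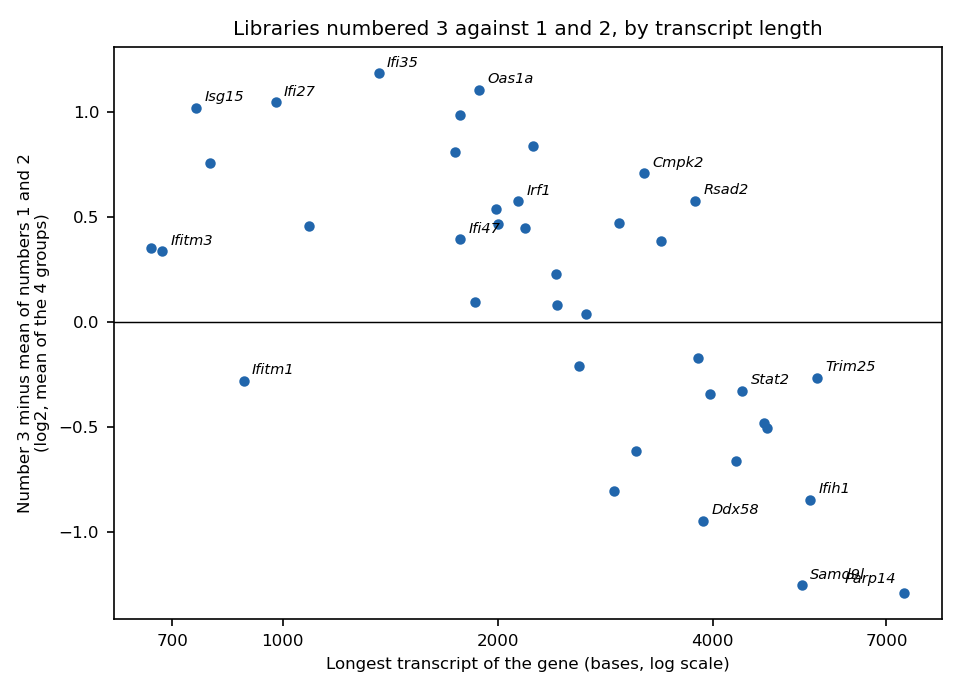
Difference between the library numbered 3 and the mean of numbers 1 and 2 (log2, mean of 4 groups) against the longest transcript of each gene in bases, on a log axis, for the 39 genes. Points tend to fall with length, from short genes such as Isg15, Ifi27 and Ifi35 near 1 to Samd9l and Parp14 below -1.2 (Pearson r -0.67). Some depart from this: the shortest, Ifitm2 and Ifitm3, are at 0.35 and 0.34, and Ifitm1 is at -0.28. The longer Cmpk2 and Rsad2 are at 0.71 and 0.58.

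Other genes of interferon production and signalling were listed alongside: 40 symbols, of which 38 were found and 31 tested. The interferon genes Ifnb1, Ifna1, Ifna2, Ifna4, Ifng, Ifnl2 and Ifnl3 did not pass the filter. Ifnb1 reached 6.04 normalized counts at most, and Ifna1, Ifnl2 and Ifnl3 were listed at 0 in all 12 libraries. None of the 31 tested passed without the block. With it, Ikbke, a kinase that activates interferon regulatory factors, rose in both cell groups, averaging 2326 ± 531 in SoxC_KO_TNF and 1437 ± 624 in SoxC_KO cells, and 2484 ± 666 in control_TNF and 1280 ± 302 in control cells (SD, n = 3 each; limma adjusted p = 0.0132 and 0.00294). On average with the block 7 of the 31 rose, against 3.01% of all genes, and 1 fell, against 2.18%. Besides Ikbke, those that rose were the kinase genes Jak2 and Tbk1, the receptor chain Ifngr2, the factor Irf5, the RNA sensor Tlr3 and the ligase Trim21. The TNF receptor gene Tnfrsf1a fell (log2 change -0.46, limma adjusted p = 0.211, and 0.0241 with the block). Jak2 averaged 4447 ± 1668 in SoxC_KO_TNF and 1711 ± 1050 in SoxC_KO cells (SD, n = 3 each; log2 change 1.59, limma adjusted p = 0.614, and 0.00248 with the block). Of the genes with the highest means, Jak1, Tnfrsf1b and Stat3, none was called.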

How the data were processed

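RNA of 12 libraries in 4 groups of 3 was analysed from the authors' deposited table, whose values are on the log2 scale and normalized, per the file headers. DESeq was among the tools and mm10 was the build, per the submitters' processing notes; no source used here names the aligner, the annotation or whether counting used strand. Tested on the file, log2 was taken without a pseudocount and values at or under 1 are listed as 0. The values were raised to the power of 2, keeping 0 as 0, and analysed as log2(normalized count + 1), which understates the fold changes of low genes. Whole reads could not be recovered (55.9% to 65.3% of low values between 1 and 20 were whole or mid-step multiples of the commonest low value, tolerance 0.01 step), so no count model was run. The design had assumed linear values.

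Genes with at least 10 in at least 3 of 12 libraries were kept. R 4.3.3 with limma 3.58.1 fitted 1 mean per group to all 12 libraries, with an intensity trend and Benjamini-Hochberg adjustment over 18139 genes at a threshold of 0.05. Averages are means over the other factor, and the interaction is the TNF change in SoxC_KO minus that in control cells. Replicate numbers of the titles were checked as pairs by the correlation of same-numbered libraries after removing group means. Every pair exceeded 0.1 for TNF in SoxC_KO cells (0.340, 0.148 and 0.501), TNF in control cells (0.103, 0.550 and 0.715) and knockout without TNF (0.457, 0.515 and 0.707). Knockout with TNF (0.0537, 0.189 and 0.526) fell short. The libraries numbered 3 differ alike in every group, which alone raises these values, so pairs and that difference cannot be told apart. Results are given without and with the number as a block. The script was tested on simulated data.

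Levels per kilobase used the longest annotated transcript. Members called in any comparison in either model were to be given in every library, and other values by range. The members and lists were chosen with earlier results of these data known. Python 3.11.15 with matplotlib 3.10.9 drew the figures. Alternatives were other pseudocounts, filters, scalings and priors, array weights, only the groups compared, and leaving out libraries.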

Additional observations from a re-analysis of the deposited data

How the results depend on the processing

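No count or called gene turned direction under the alternatives run. Medians that were near 0 did: the knockout medians as given above, and the interaction median of 0.02. The latter was -0.21 with array weights and -0.13 without the libraries numbered 3. It ran from -0.20 without control replicate 3 to 0.11 without control replicate 2. Without the block, members up with TNF on average numbered 1, and 14 with the replicate block, 29 with array weights and 13 without the libraries numbered 3; leaving out 1 library gave 1 to 4 (3 without SoxC_KO replicate 3, 4 without control replicate 3). In SoxC_KO cells the 0 became 7 with the replicate block, 13 with array weights and 1 without the libraries numbered 3. Leaving out 1 library gave 0 to 1 in these cells (1 without control replicate 3, against 0.265% of all genes). In control cells the 0 became 2 with the replicate block, 26 with array weights (with 1 down) and 7 without the libraries numbered 3, namely Cmpk2, Ifi47, Ifit3, Ifit3b, Irf1, Rsad2 and Zbp1. Array weights, by limma's gene-by-gene method because its usual one did not converge, called 9.27% of all genes up on average, 3.21% in SoxC_KO cells and 16.7% in control cells. Those shares were 3.01%, 1.78% and 1.18% with the replicate block, and 2.29%, 0.866% and 1.07% without the libraries numbered 3. With the block, leaving out 1 library gave 6 to 13 on average (9 without SoxC_KO replicate 2 or control_TNF replicate 1, 8 without control_TNF replicate 2), 2 to 11 in SoxC_KO cells and 0 to 4 in control cells. Without SoxC_KO_TNF replicate 1, for example, 3 rose in SoxC_KO cells (0.711% of all genes) and 3 in control cells (1.08%). The share of all genes called thus moved between fits as well, so these ranges do not describe the members alone. With the block and without the liver-containing libraries the numbers were 5, 2 and 0 (1.71%, 0.617% and 0.606% of all genes). With the block and without the libraries numbered 3, SoxC_KO cells had 1 (0.612%). These blocked alternatives and the array weights were chosen after the data were seen. The other pseudocounts, filters, priors and scalings, and fits of only the groups compared, left the numbers of members called within 1.5 times. Sign changes of members under the other scalings touched log2 values of 0.122 or less in size. Of the values of single called genes under alternatives, 211 kept direction and call, and 134 kept direction but lost the call. The low members Ifitm1 and Mx1 carry the most counting error. The cause of these shifts was not tested.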

Other observations

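None of the kept relatives of the 39 genes examined, named after their values were seen, passed the test for TNF. Oas1g, a close copy of Oas1a, averaged 523 in SoxC_KO_TNF and 475 in SoxC_KO cells, and 667 in control_TNF and 439 in control cells, and its TNF change of 0.64 in control cells did not pass (limma adjusted p = 0.998, and 0.0985 with the block). Oas1b averaged 213 in SoxC_KO_TNF and 184 in SoxC_KO cells, and 198 in control_TNF and 155 in control cells. Ifi27l2b, related to Ifi27, had an average TNF change of -0.37 (limma adjusted p = 0.705, and 0.197 with the block). Oas1d, Oas1e, Oas1f, Oas1h, Ifitm5, Ifitm7 and Ifi44l did not pass the filter on low values.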
